A study of Octopus bimaculoides with 95 samples.

Results

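Transcriptomes of 5 single neurons of the California octopus, Octopus bimaculoides, were set against 5 libraries made from whole pieces of its nervous system. These 10 libraries are the second expression table of a series of 95; the other 85 form a table of whole tissues from a sequencing plate. Each neuron library is labelled as 1 cell picked from dissociated nervous tissue and carried to cDNA without extracting RNA. They are a neuron of the stellate ganglion, an amacrine neuron and a large efferent neuron of the vertical lobe, a neuron of the deep medulla of the optic lobe and a neuron of the plexiform periphery of the optic lobe, called here the stellate, amacrine, large efferent, medulla and periphery neurons. The whole tissues, from which RNA was extracted first, are the stellate ganglion, the vertical lobe in 2 libraries (vertical lobe 1 and 2), the medial superior frontal lobe (here the superior frontal lobe) and the brachial ganglion. No treatment, age or animal is given for any of them in the sources used here, so libraries of a group may share an animal. The 5 neurons are of 5 kinds with 1 cell each, so the spread among them is a spread between kinds and cells together. In whole tissue, fewer cells of a type and less RNA per cell cannot be told apart.

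The octopus brain is a set of lobes around the esophagus, joined to very large optic lobes and to ganglia in the mantle and arms. The vertical lobe is known for learning and memory: fibres from the superior frontal lobe reach its small, densely packed amacrine interneurons, which act on large efferent neurons that carry its output. The medulla and periphery of the optic lobe process vision, the stellate ganglion drives the mantle muscle, and brachial ganglia lie along the axial nerve cord of the arm. A piece of lobe holds many kinds of neuron together with glia, blood vessels and blood, whereas a picked neuron should hold the RNA of that cell. The table gives genes by ID with no name or product. Only 17 sequences carry a name of their own, mostly peptides, and genes are otherwise described by ID, by level and by the tissues of the plate table where they were high.

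The deposited values are TPM, transcript levels scaled by length to a fixed total, which carry no depth. They rise in whole steps of 1 read, and reads could be recovered for 17332 of 17544 genes. A transcript above 0 in 1 library alone is always recovered as 1 read, whatever its level, so its read number is not known. With 2 libraries above 0, the lower value is set to 1 read. The neurons had far fewer reads over genes, 430600 in the stellate, 777481 in the amacrine, 1460677 in the large efferent, 214585 in the medulla and 160781 in the periphery neuron, against 20998527 in the stellate ganglion, 13243820 and 7328288 in the vertical lobe, 18335710 in the superior frontal lobe and 14591257 in the brachial ganglion. Over all genes, 1 read was worth a median of 0.692 to 6.83 TPM in the neurons and of 0.0349 to 0.0917 TPM in the tissues. A gene listed at 0 in a neuron can therefore still have been present, in the shallowest neurons at 10 TPM or more for short transcripts. Added ERCC spike-in RNA took 0.0686% to 1.28% of TPM in the neurons, against 4.82% in vertical lobe 2 and 0.00012% to 0.00016% in the other 4 tissues. A code in the labels ends in 25 for the 5 neurons and vertical lobe 2 and in 13 or 14 for the other tissues; what it stands for is not given in the sources used here. Cell against tissue, cDNA made with or without RNA extraction, and this code cannot be told apart in most libraries, since vertical lobe 2 is the only tissue with the neurons' code. The codes also name the brachial ganglion library ArmCord and the periphery neuron OptDeepRetinaCell, which goes beyond their tissue labels.

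The medulla and periphery neurons stood apart from the other 3. They had the fewest reads and the most genes: at 1 TPM or more, 13121 genes in the medulla and 13632 in the periphery neuron, against 7862 in the stellate, 6573 in the amacrine and 9517 in the large efferent neuron. The 5 tissues lay close together, between 9011 in the stellate ganglion and 10595 in the brachial ganglion. Group means were 10141 ± 3138 genes in neurons and 9984 ± 660 in tissues (SD, n = 5 each), a difference that an exact two-sided permutation test did not separate (p = 0.897; adjusted over 9 library measures, 1). Without the medulla and periphery neurons the difference was -1999.6 genes (adjusted p = 0.107, exact permutation). At an equal 160781 reads, the depth of the shallowest neuron, the expected number of genes with a read was 13500 in the periphery, 12414 in the medulla, 7993 in the large efferent, 6791 in the stellate and 5836 in the amacrine neuron, against 7446 to 8621 in the tissues (p = 0.444, exact permutation test). These 2 optic lobe neurons therefore stood above every tissue at equal reads, and the amacrine and stellate neurons below every tissue. Whether these 2 libraries hold the RNA of 1 cell alone was not tested. Their gene counts and list values carry that limit. The results below are given with both optic lobe neurons, and without them where that changes a result.

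**Figure D1:**
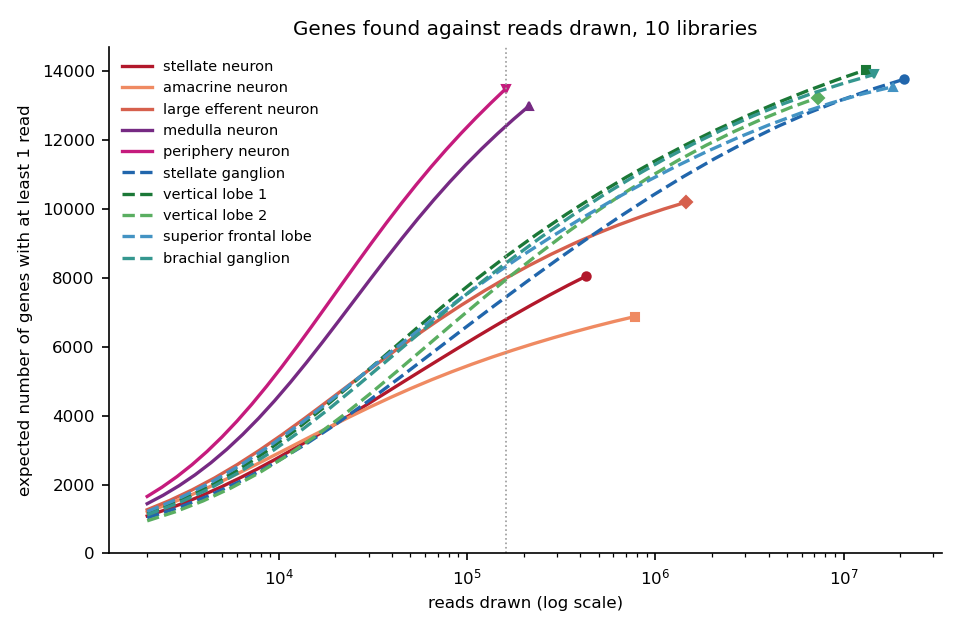
Expected number of genes with at least 1 read (vertical axis) against the number of reads drawn from a library (horizontal axis, log scale), as solid lines for the 5 single neurons and dashed lines for the 5 whole tissues, each ending at its own depth. At the dotted line of 160781 reads, the periphery and medulla neurons reach 13500 and 12414 genes, above the 7446 to 8621 of the tissues, and the amacrine neuron 5836.

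Whole profiles of the neurons resembled each other less than those of the tissues did. Pearson's r of log2(TPM + 1) over all genes averaged 0.409 between neurons (0.303 to 0.624) and 0.915 between tissues (0.855 to 0.970), a difference of -0.51 (exact two-sided permutation test p = 0.00794, the smallest that 5 against 5 allow; adjusted over the 9 measures, 0.0357). Without the medulla and periphery neurons the difference was -0.44 (adjusted p = 0.0804, exact permutation), where 3 against 5 libraries allow no unadjusted p under 0.0179. Depth differed between the groups in the same way, and its part in the result was not tested. The closest pair of neurons was the amacrine and large efferent neurons, both of the vertical lobe, at 0.624; the other 9 pairs lay between 0.303 and 0.456. Neurons and tissues correlated at 0.495 on average (0.316 to 0.720). The large efferent neuron was nearest to tissue, at 0.709 and 0.720 with the vertical lobe libraries and 0.720 with the superior frontal lobe, against 0.611 with the stellate ganglion and 0.651 with the brachial ganglion. The amacrine neuron was likewise nearer to these lobes than to the ganglia, at lower values, 0.612 and 0.621 with the vertical lobe, 0.622 with the superior frontal lobe, 0.535 with the stellate ganglion and 0.562 with the brachial ganglion. The stellate neuron correlated at 0.434 with the stellate ganglion and at 0.404 to 0.431 with the other tissues, so its own ganglion barely led. These coefficients are across genes of shared libraries and are descriptions with no test.

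**Figure D2:**
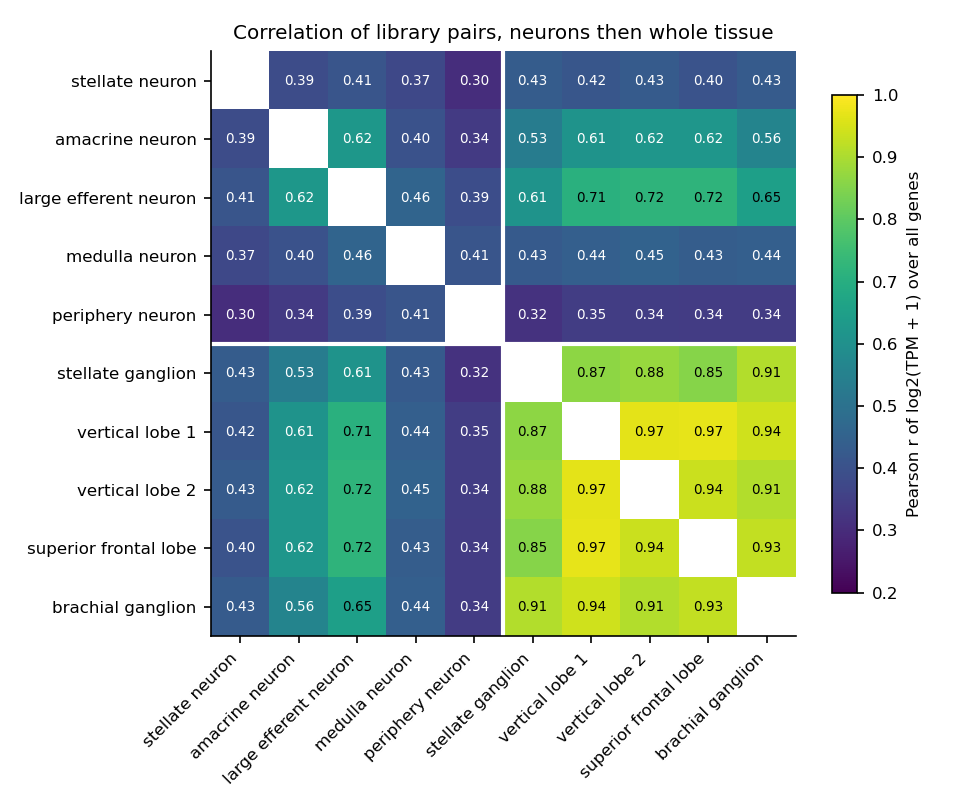
Pearson's r of log2(TPM + 1) over all genes for each pair of libraries, with the 5 single neurons in the first rows and columns and the 5 whole tissues after them. Tissue pairs reach 0.855 to 0.970, neuron pairs 0.303 to 0.624, and the amacrine and large efferent neurons stand nearest to the vertical and superior frontal lobes.

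Against the tissue means of the plate table, which was scaled separately and is used here for order alone, every neuron was closer to the 21 neural tissues than to the 25 non-neural ones by the median r. The medians were 0.651 and 0.510 for the large efferent, 0.568 and 0.429 for the amacrine, 0.412 and 0.356 for the stellate, 0.421 and 0.371 for the medulla and 0.326 and 0.268 for the periphery neuron, the neural value first in each pair. Of the 21 nearest plate tissues of each neuron, 17 to 19 were neural, and of each whole tissue 15 to 19. The nearest plate tissue of the amacrine neuron was the right lateral vertical lobe (r = 0.625), and the large efferent neuron had the subvertical lobe at 0.724 and the right lateral vertical lobe at 0.720. The periphery neuron had the subvertical lobe at 0.353 and its own region, the plexiform periphery, at 0.351. The stellate neuron was nearest to the dorsal basal lobe (0.434) and the medulla neuron to the subvertical lobe (0.447), so neither had its own region first. Nor did vertical lobe 1 and 2, which were nearest to the subvertical lobe (0.921 and 0.933) and then to the dorsal basal lobe (0.903 and 0.924).

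Genes at 1 TPM or more in every tissue were often under it in a neuron, and genes under 1 TPM in every tissue often reached it in a neuron. Of 7671 genes at 1 TPM or more in all 5 tissues, 2657 (34.6%) were at 1 TPM in all 5 neurons and 98 in none. The periphery and medulla neurons held 86.8% and 86.3% of those 7671 genes, the large efferent neuron 80.1%, the amacrine 60.1% and the stellate 58.0%. Of 5476 genes under 1 TPM in every tissue, 4567 (83.4%) reached 1 TPM in some neuron, but only 164 did so in all 5. The count was 3523 in the periphery, 3255 in the medulla, 1642 in the stellate, 1275 in the large efferent and 699 in the amacrine neuron, where these genes made up 17.2%, 9.09%, 4.33%, 1.53% and 1.93% of TPM in turn. Recovered reads were 3 or fewer for 49.0% of them in the periphery and 48.1% in the medulla neuron. The shares were 38.9% in the stellate, 29.2% in the amacrine and 23.8% in the large efferent neuron. Genes above 0 in 1 library alone enter as 1 read by construction, so these shares are partly fixed by the recovery. The lowest value above 0 was 1.06 TPM in the medulla and 1.41 TPM in the periphery neuron, so any read there counted as found. In the tissues 1 read was worth a median of 0.0349 to 0.0917 TPM, so a gene under 1 TPM there could still have several reads. Genes listed at 0 in 1 library alone numbered 1306 in the amacrine, 1298 in the stellate, 205 in the large efferent, 146 in the periphery and 136 in the medulla neuron, and 1 to 23 in the tissues (mean difference 605, exact permutation p = 0.00794, adjusted 0.0357; without both optic lobe neurons 1177, adjusted 0.0804, from the smallest p that 3 against 5 allow). With any 1 tissue left out this difference did not pass (adjusted p 0.375 to 0.524, exact permutation), nor with any neuron but the medulla neuron left out (0.0714).

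Abundant genes were also partly shared. At 100 TPM or more, 312 genes were found in all 5 neurons, 800 in all 5 tissues and 258 in all 10 libraries, and those 258 took 15.7% to 41.5% of TPM in neurons and 29.8% to 46.8% in tissues. LOC106867166 led the medulla neuron and was high everywhere, at 20526, 8798, 4624, 33636 and 2209 TPM in the stellate, amacrine, large efferent, medulla and periphery neurons, against 19312 TPM in the stellate ganglion, 4025 and 9577 in the vertical lobe, 5695 in the superior frontal lobe and 13401 in the brachial ganglion (log2 difference 0.03 ± 0.61, adjusted p = 0.984 in limma). LOC106877938 made up 10.0% of the stellate neuron. It was higher in all 5 neurons, at 100199, 10511, 2042, 21207 and 4795 TPM, against 666, 518, 92.9, 679 and 847 TPM in the stellate ganglion, vertical lobe 1 and 2, superior frontal lobe and brachial ganglion. Its log2 difference was 4.70 ± 0.82 (limma, adjusted p = 0.00939). LOC106884397, the leading gene of the stellate and brachial ganglia, was lower in all 5 neurons, at 779 to 3553 TPM against 6294 to 20447 TPM in tissues (-2.83 ± 0.49, limma, adjusted p = 0.00939).

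The leading gene of the vertical lobe libraries was low in the vertical lobe neurons. LOC106874496 stood at 53.1 TPM in the amacrine and 30.8 TPM in the large efferent neuron, against 76378 TPM in vertical lobe 1 and 207272 TPM, 20.7% of the total, in vertical lobe 2. The medulla neuron had 1519 TPM of it, the periphery neuron 152 and the stellate neuron 37.0, against 68.2 TPM in the superior frontal lobe, 0.545 in the brachial ganglion and 0.388 in the stellate ganglion. The groups overlapped and the gene was not called (adjusted p = 0.733, limma). On the plate its highest value was 469125 TPM in a dorsal basal lobe library, so it was not particular to the vertical lobe. LOC106868274, a non-coding RNA by its accession and the leading entry of the amacrine neuron, was high in both vertical lobe neurons, at 12736 TPM in the amacrine and 4047 in the large efferent, against 32.2 to 579 TPM in the other 3 neurons. In tissues it was at 1104 and 1158 TPM in the vertical lobe, 2521 in the superior frontal lobe, 348 in the brachial ganglion and 28.2 in the stellate ganglion. LOC106871439, which led the large efferent neuron, was also high in both: 7748 TPM there and 5090 in the amacrine neuron, and 114 to 216 in the other 3. In tissues it was at 1404 and 696 TPM in the vertical lobe, 3754 in the superior frontal lobe, 1089 in the brachial ganglion and 334 in the stellate ganglion.

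Across all genes at 1 TPM or more in at least 2 of the 10 libraries, 15177 in number, 285 (1.88%) were higher and 265 (1.75%) lower in single neurons, by limma's moderated test of log2(TPM + 1). A call needed an adjusted p under 0.05 and a shift of at least 1 on that scale. The median difference of all tested genes was 0.58, and -0.47 without both optic lobe neurons. In 616 genes (4.06%) all 5 neurons lay above all 5 tissues and in 584 (3.85%) below; by rank within each library these were 1605 (10.6%) and 1136 (7.49%). Of the called genes, 257 of the 285 higher and 211 of the 265 lower showed no overlap between the groups. Among the 285 higher genes, 116 were under 1 TPM in every tissue and 19 at 0 in all 5. Among the 265 lower genes, 47 were at 0 in all 5 neurons. Such genes passed the filter only through the group where they were high, so their calls are not independent of it. The same holds for the leading genes below that were under 1 TPM in every tissue or at 0 in all neurons.

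The genes that led the rise were under 5 TPM in all tissue. LOC106870463 had 250 TPM in the stellate, 87.2 in the amacrine, 99.0 in the large efferent, 810 in the medulla and 803 in the periphery neuron, from 177 to 506 reads each, against 0 to 0.135 TPM, 0 to 10 reads, in the tissues. No neuron came near a tissue, and the difference was 8.01 ± 0.96 (SE; limma, adjusted p = 0.000685). In the plate table the gene was above 0 in 26 of 85 libraries and reached at most 4.29 TPM. LOC106878925 was at 4.76, 38.2, 182, 41.4 and 324 TPM in the stellate, amacrine, large efferent, medulla and periphery neurons, from 1, 12, 105, 4 and 19 reads. It was at 0 in all 5 tissues and in all 85 plate libraries. In tissues, 3 reads would have been worth 0.261 to 0.687 TPM. Its fitted difference was 5.82 ± 1.12 (limma, adjusted p = 0.0149), a value that depends on the added 1 TPM.

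The other 8 leading genes were likewise higher in every neuron than in any tissue, as their choice among genes without overlap required. LOC106883017, a short non-coding RNA by its accession, was at 26.2 to 666 TPM in neurons from 7 to 27 reads, against at most 0.378 TPM in tissues (7.11 ± 1.01, limma, adjusted p = 0.00303). LOC106877591 was at 18.4 to 403 TPM in neurons and at 0 in every tissue but the brachial ganglion, at 0.530 TPM. LOC106871836 was at 16.8 to 176 TPM against at most 0.317, LOC106883466 at 4.62 to 243 against at most 0.310, LOC106874095 at 7.36 to 296 against at most 0.503, and LOC106874022 at 3.16 to 140 against at most 0.105 TPM. LOC106882054 was present in tissue too, at 17.3 to 451 TPM in neurons against 0.208 to 4.45 TPM in tissues. LOC106880347 was at 61.7 to 369 TPM in neurons against 0.744 to 2.96 TPM in tissues, and on the plate it was above 0 in 60 of 85 libraries, with a median of 12.2 TPM and 457 TPM in skin. In 6 of the 10, the lowest neuron was the large efferent neuron, the deepest of the 5.

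The genes that led the fall were abundant in every tissue and listed at 0 in at least 2 neurons each. LOC106877459 was at 0 in all 5 neurons, where 3 reads would have been worth 4.32 TPM in the large efferent to 42.6 TPM in the periphery neuron, against 373 TPM in the stellate ganglion, 683 and 430 in the vertical lobe, 537 in the superior frontal lobe and 485 in the brachial ganglion. Its fitted difference was -8.94 ± 0.83 (limma, adjusted p = 2.4e-05). The plate table held it above 0 in 71 of 85 libraries, up to 1560 TPM in a superior frontal lobe library. Another 5 of these genes were also at 0 in all 5 neurons, against 73.6 to 217 TPM in tissues for LOC106875827, 40.3 to 426 for LOC106880535, 22.8 to 180 for LOC106877979, 27.5 to 175 for LOC106873988 and 20.1 to 228 for LOC106878921. For some of these the depth of the shallow neurons is a limit: 3 reads of LOC106880535 would have been worth 107 TPM in the periphery neuron, within its range in tissues. Each fitted difference of a gene at 0 throughout depends on the added 1 TPM.

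The remaining 4 were found in some neurons. LOC106881516, a non-coding RNA by its accession, was at 0 in the stellate and amacrine neurons and at 62.3, 240 and 220 TPM in the large efferent, medulla and periphery neurons, from 14, 9 and 5 reads, against 1270, 2605, 2234, 700 and 1590 TPM in the stellate ganglion, vertical lobe 1 and 2, superior frontal lobe and brachial ganglion (-6.24 ± 1.34, limma, adjusted p = 0.0231). LOC106867205 was above 0 in the large efferent and medulla neurons alone, at 108 and 99.5 TPM, against 271 to 851 TPM in tissues. LOC106867345 was above 0 in both vertical lobe neurons and in no other, at 78.6 TPM in the amacrine and 120 TPM in the large efferent, against 301 to 630 TPM in tissues. LOC106882215, non-coding, rested on 2 reads in the large efferent and 1 in the periphery neuron, against 412 to 1374 reads in tissues.

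**Figure D3:**
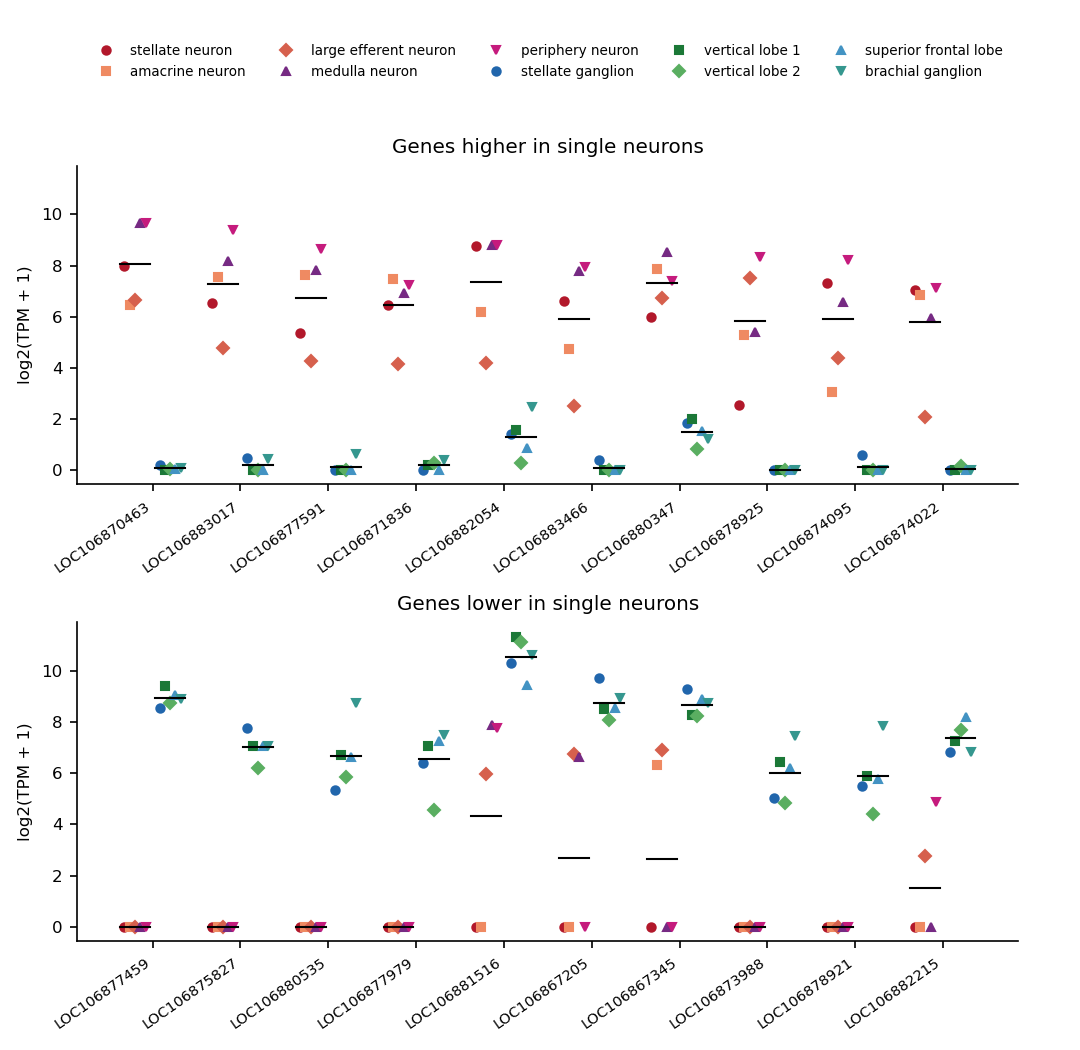
log2(TPM + 1) of the 10 genes with the largest rise (upper panel) and the 10 with the largest fall (lower panel) among called genes without overlap, with 1 symbol per library, the 5 single neurons left and the 5 whole tissues right within each gene, and black lines at group means. By that choice neurons and tissues do not overlap in any of the 20 genes, and 6 of the lower genes are at 0 in all 5 neurons.

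The 2 sets of called genes differed in transcript length, which enters every TPM value and the worth of 1 read and so is not independent of the calls. Relative length, taken from the size of a read step in TPM and scaled to 1 for a typical transcript, had a median of 1.54 (quartiles 0.789 and 2.51) in the 285 higher genes and 0.619 (0.420 and 0.814) in the 265 lower genes, beside 1.08 (0.642 and 1.72) in all tested genes. Among genes without overlap the medians were 2.10 for those above and 0.685 for those below the tissues. By accession, 4.56% of the higher and 11.3% of the lower genes were non-coding RNA, beside 7.68% of all. Level differed as well: the higher genes had a median mean of 53.7 TPM in neurons and 0.819 TPM in tissues, the lower genes 6.89 and 88.8 TPM. How length, read depth and the way cDNA was made bear on the calls was not tested.

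The calls depended on single libraries and on the design. Leaving out any 1 tissue left 17 to 33 genes higher and 9 to 28 lower, with 17 and 9 without vertical lobe 1, 19 and 11 without the brachial ganglion, 23 and 15 without the superior frontal lobe, 26 and 22 without the stellate ganglion and 33 and 28 without vertical lobe 2. Leaving out a neuron gave 1096 and 439 without the amacrine, 591 and 330 without the stellate, 516 and 449 without the large efferent, 297 and 428 without the periphery and 237 and 285 without the medulla neuron. Without both optic lobe neurons 451 genes were higher and 1185 lower, and 257 of the 285 and 217 of the 265 were still called. With the label code as a covariate, where vertical lobe 2 alone ties the groups, no gene was called by limma (358 at an unadjusted p under 0.05), and all 285 and 265 kept their direction. The test also assumes equal spread in both groups, while the median SD of log2(TPM + 1) was 2.29 among neurons and 0.61 among tissues; with limma array weights, which let libraries differ in spread, 56 were higher and 56 lower. In simulated data with this unequal spread the equal-spread fit called 12 unchanged genes. It recovered 4%, 24%, 44% and 76% of 50 genes each at log2 changes of 2, 3, 4 and 6. The false calls among the 285 and 265 may exceed what the adjusted p states.

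The split of the calls moved with the scale. The share of called genes that were higher was 51.8% on TPM, 40.6% after quantile scaling (879 higher, 1288 lower), which put the median difference at -0.12, and 26.5% after median ratio scaling (394 and 1092), which put it at 0.04. It was 81.6% with voom on the recovered reads, 27.6% without both optic lobe neurons, 71.4% without the amacrine neuron, 64.2% without the stellate neuron, 65.4% without vertical lobe 1, 63.3% without the brachial ganglion and 41.0% without the periphery neuron.

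Within the 2 regions that gave both neurons and tissue, the called genes moved as in the whole. In the vertical lobe, both neurons lay above both tissue libraries in 273 of the 285 higher genes and below in 249 of the 265 lower genes, beside 2753 above and 4321 below among all 15177, and the median difference was 3.58 in the higher and -3.90 in the lower genes. In the stellate ganglion, the neuron was above its ganglion in 279 and below it in 260 of them, beside 5702 above and 8307 below among all. Since these libraries entered the calls, the counts describe the called genes and do not test them. In a fit of the vertical lobe libraries alone, 2 neurons against 2 tissues, limma called no gene (2982 at an unadjusted p under 0.05), and with region as a block over 3 neurons and 3 tissues it called none (2665).

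Spread among neurons exceeded spread among tissues in most genes. The SD over the 5 libraries was larger in neurons for 93.8% of tested genes, with the medians given above. It did not move one way with level: the median SD was 2.53 in neurons and 0.69 in tissues at a mean of 10 TPM or more, 1.82 and 0.64 at 100 TPM or more, and 1.06 and 0.60 in the 147 genes at 1000 TPM or more. The genes a neuron had to itself among the 5 neurons were few. At 100 TPM or more in 1 neuron and under 1 TPM in the other 4 there were 104 genes in the periphery and 32 in the medulla neuron. The stellate neuron had 24, the large efferent 16 and the amacrine neuron 11. Among the tissues the stellate ganglion had 12 such genes and the others 0. In the neurons in turn, 53, 16, 4, 0 and 1 were recovered at 3 reads or fewer. Genes above 0 in 1 library alone enter as 1 read whatever their level, so those counts are partly fixed by the recovery.

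Some of these genes had firm read numbers. In the stellate neuron, LOC106879138 stood at 954 TPM from 364 reads and LOC106877533 at 693 TPM from 127 reads, against 4.80 and 1.10 TPM in the stellate ganglion and at most 0.953 TPM in the other neurons. In the amacrine neuron, LOC106883097 stood at 381 TPM from 89 reads, LOC106872288 at 331 TPM from 74 and LOC106868834 at 295 TPM from 29, all at 0 in the other 4 neurons. The tissues held them at 8.67 to 41.7, 0.856 to 5.76 and 21.9 to 81.9 TPM in turn. In the large efferent neuron, LOC106872227, LOC106877621 and LOC106883743 stood at 340, 255 and 243 TPM from 103, 77 and 152 reads. The tissues held these at 5.61 to 41.4, 40.3 to 222 and 79.8 to 121 TPM in turn. LOC106883743 was called lower in single neurons (-5.04 ± 1.33, limma, adjusted p = 0.0448), although its value in the large efferent neuron lay above every tissue. The 3 of the medulla neuron (LOC106872410, LOC106872592 and LOC106871562) were at 308 to 431 TPM there and at 0 in every other library. Such genes are recovered as 1 read by construction, so their read numbers are not known. In the periphery neuron LOC106877534 had 2058 TPM from 32 reads, against 0 to 3.69 TPM in tissues. LOC106877908 and LOC106872041 were at 602 and 417 TPM there and at 0 in every other library, so their read numbers are not known either.

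Gene lists taken from the plate table placed the libraries among known tissues. The neural list holds 2872 genes that were higher in 21 neural than in 25 non-neural plate tissues. At 1 TPM or more, 62.5% of its members were found in the stellate, 69.8% in the amacrine, 86.3% in the large efferent, 89.1% in the medulla and 90.9% in the periphery neuron, against 85.9% in the stellate ganglion and 94.9% to 96.8% in the other tissues. It took 41.3% to 44.0% of TPM in the stellate, amacrine and large efferent neurons and 24.6% and 25% in the medulla and periphery neurons, against 28.6% to 61.2% in the tissues. Without the highest member of each library these were 33.9%, 42.0%, 40.5%, 21.2% and 24.5% in the neurons in turn. In the tissues they were then 26.7% to 42.5%, with 40.5% in vertical lobe 2. By limma 44 of its 2868 tested members were higher (1.53%) and 54 lower (1.88%), close to the 1.88% and 1.75% of all genes, with a median difference of -0.12 beside 0.58 for all.

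Genes of other organs were found in neurons about as often as other genes under 1 TPM in every tissue. The 12 lists of genes specific to ova, male gonad, heart and vessel, sucker, gut and gland, retina, skin, gill, muscle, arm end, blood and optic gland hold 1334 genes together. At 1 TPM, 29.8% of them were found in the stellate, 12.7% in the amacrine, 24.4% in the large efferent, 60.9% in the medulla and 69.1% in the periphery neuron, against 6.45% to 14.6% in the tissues, a range that holds the amacrine neuron. The lists were chosen to be low in neural tissue, and of all 5476 genes under 1 TPM in every tissue the same neurons held 30.0%, 12.8%, 23.3%, 59.4% and 64.3%. Of the 992 organ-list members under 1 TPM in every tissue they held 29.5%, 11.9%, 22.9%, 60.9% and 69.1%, so the organ lists stood near that background. Their summed share was 1.02%, 0.536%, 0.458%, 2.41% and 5.06% of TPM in those neurons, against 0.0356% to 0.0947% in the tissues. At equal reads the percentages with a read were 24.2%, 9.96%, 15.8%, 57.5% and 69.4% against 4.70% to 6.96%. The low tissue values follow from how the lists were chosen. No such share was computed for the other genes under 1 TPM in every tissue. Over all genes, 5836 to 13500 had a read at equal reads in neurons and 7446 to 8621 in tissues, so there the groups overlapped. The median recovered read number of a member found was 4 in the medulla and periphery neurons and 5 in the stellate neuron. It was 7 in the large efferent and 10 in the amacrine neuron. Members above 0 in 1 library alone enter it as 1 read by construction. By limma 21 of 944 tested members were higher (2.22%, beside 1.88% of all genes) and none lower, with a median difference of 1.80.

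No single organ list carried these values. In the medulla and periphery neurons each list was found at 47.6% to 81.0% of its members. These values lay around the 59.4% and 64.3% of all genes under 1 TPM in every tissue. The ova list of 439 genes was found at 60.6% and 70.4%, the male gonad list of 223 at 62.8% and 68.6% and the retina list of 90 at 67.8% and 65.6%. The blood list of 21 genes was found at 81.0% in the periphery and 47.6% in the medulla neuron, against 9.52% to 19.0% in the other 3 neurons and 0% to 28.6% in tissues, and took 0.280% of TPM in the periphery neuron and at most 0.0302% in the other 4. LOC106877534 alone, at 2058 TPM from 32 reads, made most of that share, and the other members took 0.0742%. In whole tissue the highest values were 55.0% for the optic gland list in vertical lobe 1, with 25% to 30% in 3 other tissues and 0% in the stellate ganglion, and 38.9% for the gill list in the stellate ganglion. The non-neural list, 787 genes higher in non-neural tissues as a class, was found at 40.0%, 21.6%, 37.9%, 74.6% and 78.5% in the stellate, amacrine, large efferent, medulla and periphery neurons, against 40.5% to 77.9% in tissues, so there the groups overlapped. The part of depth or preparation in these values was not tested.

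**Figure D4:**
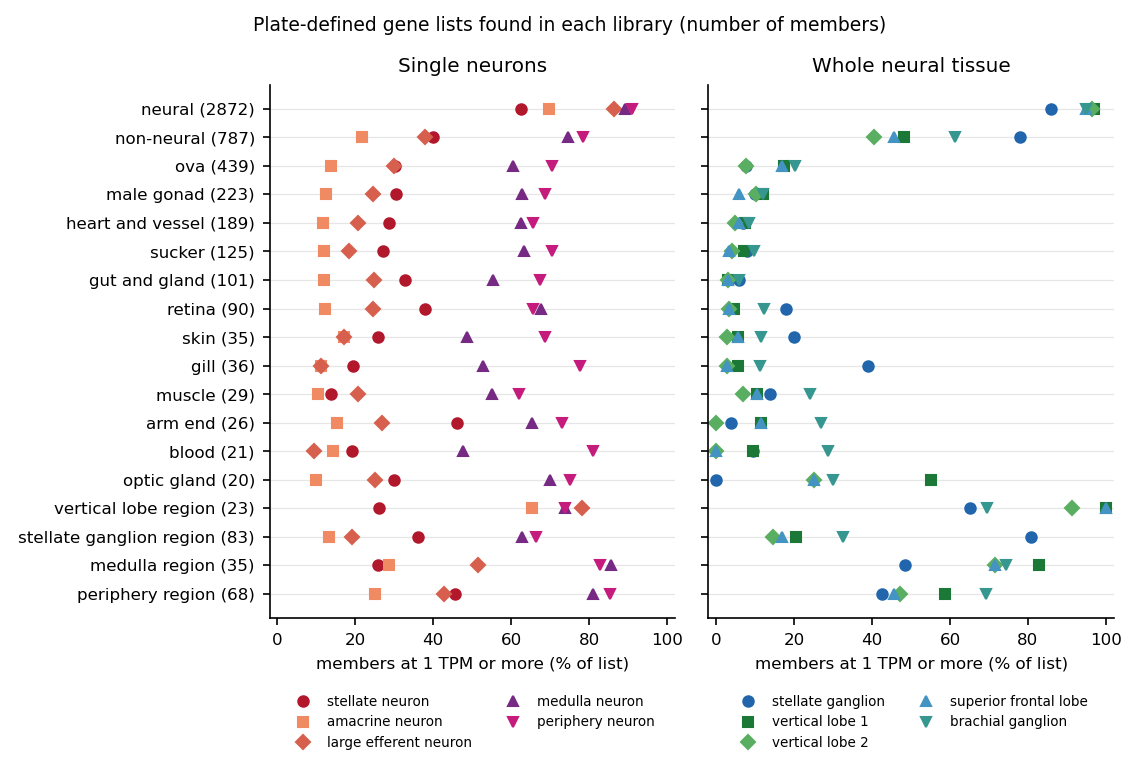
Share of the members of each plate-defined gene list found at 1 TPM or more (horizontal axis, %), with lists down the page and their number of members in brackets, for the 5 single neurons (left panel) and the 5 whole tissues (right panel). The medulla and periphery neurons hold 47.6% to 81.0% of every organ list, and the tissues at most 55.0%.

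The vertical lobe region list took its largest share of TPM in the vertical lobe neurons. This list holds 23 genes that stood above every other neural tissue of the plate, and non-neural tissues did not enter that choice. It took 0.328% of TPM in the amacrine and 0.427% in the large efferent neuron, against 0.0163% in the stellate, 0.0602% in the medulla and 0.118% in the periphery neuron, and against 0.0736% and 0.0485% in the vertical lobe libraries, 0.167% in the superior frontal lobe, 0.0529% in the stellate ganglion and 0.0431% in the brachial ganglion. Both vertical lobe neurons thus lay above all other libraries by share of TPM. By members found at 1 TPM they did not: 65.2% in the amacrine and 78.3% in the large efferent neuron, against 100% and 91.3% in the vertical lobe libraries and 100% in the superior frontal lobe. LOC106876341 of this list was at 640 TPM in the amacrine and 175 TPM in the large efferent neuron, against 0 to 75 TPM in the other neurons and 11.9 to 49.0 TPM in tissues. LOC106880569 was at 1175 and 1289 TPM in the amacrine and large efferent neurons, against 0 to 123 in the other neurons and 148 to 438 TPM in tissues. On the plate its highest value was 7340 TPM in a retina library, so it was not particular to the vertical lobe. LOC106873486 was at 237 and 801 TPM in the amacrine and large efferent neurons, against 0 to 4.16 TPM in the other neurons and 4.24 to 576 TPM in tissues. LOC106880238 was the 1 member called, higher in neurons, at 14.3, 155, 89.3, 14.3 and 47.4 TPM in the stellate, amacrine, large efferent, medulla and periphery neurons, against 0.0101 to 4.5 TPM in tissues (4.24 ± 1.04, limma, adjusted p = 0.0330).

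Of the other region lists, those of the stellate ganglion and medulla did not lead in their own neurons, and that of the periphery did. Among neurons the periphery neuron had the largest share of all of these lists, so its lead was not particular to its own region. The stellate list of 83 genes took 0.123% of TPM in the stellate neuron, close to the 0.119% of the medulla and under the 0.262% of the periphery neuron, against 0.924% in the stellate ganglion. Its LOC106874040 was at 472 TPM in the stellate neuron from 63 reads and at 0 to 108 TPM in the other neurons, against 3.84 TPM in the stellate ganglion, and LOC106879809 at 270 TPM from 47 reads there and at 0 in the other 4 neurons. The medulla list of 35 genes took 0.134% in the medulla neuron and 0.318% in the periphery neuron, and the periphery list of 68 genes 0.359% in the periphery and 0.167% in the medulla neuron. LOC106878261 of the periphery list was at 269 TPM in the periphery neuron from 26 reads, at 6.27 TPM in the medulla neuron and at 0 in the other 3, against at most 2.03 TPM in tissues. LOC106875132 of the medulla list was at 188 TPM in the medulla and 74.0 in the periphery neuron, against 37.6 to 184 TPM in tissues.

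The named sequences differed between neurons, although a 0 in these shallow libraries does not show absence. Of 17, AG, AchBP1, AchBP2, AchBP3, Insulin3, NOXoxygenaseProbeSeq and Sp28 were listed at 0 in all 10 libraries and in all 85 of the plate. AchBP is short for acetylcholine-binding protein, known from the glia of the snail Lymnaea. IRELamide2, a peptide by its name, was at 855 TPM in the amacrine and 2962 TPM in the large efferent neuron from 229 and 1461 reads, and at 11.1, 36.4 and 100 TPM in the stellate, medulla and periphery neurons from 2, 3 and 5 reads. In tissues it was at 0 in the stellate ganglion, 3.39 and 39.2 in the vertical lobe, 7.29 in the superior frontal lobe and 0.575 TPM in the brachial ganglion. It was higher in neurons (5.12 ± 1.38, limma, adjusted p = 0.0466) but the groups overlapped, and it lost the call in 15 of 27 alternatives. On the plate it reached at most 98.7 TPM, in a lateral vertical lobe library. IRELamide1 was above 0 in the same 2 neurons and in no other, at 17.8 and 6.46 TPM from 3 and 2 reads, against at most 1.28 TPM in tissues.

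VLPep3 and GNRH, abundant in the whole vertical lobe libraries, were listed at 0 in both vertical lobe neurons. Neither was particular to that lobe. On the plate VLPep3 was highest in an anterior superior buccal lobe library (12790 TPM) and GNRH in the posterior subesophageal lobe (1203 TPM). VLPep3 was at 48.3 TPM in the medulla neuron from 2 reads and at 0 in the other 4, against 717 and 1357 TPM in the vertical lobe, 334 in the brachial ganglion, 2.37 in the superior frontal lobe and 1.02 in the stellate ganglion (-5.09 ± 1.72, limma, adjusted p = 0.0956). GNRH, named for gonadotropin-releasing hormone, a peptide of reproduction in octopus and vertebrates, was at 22.4 TPM in the stellate and 48.7 in the medulla neuron from 2 reads each and at 0 in the other 3, against 214 and 1494 TPM in the vertical lobe, 7.69 in the brachial ganglion, 2.05 in the stellate ganglion and 0.299 in the superior frontal lobe (-2.64 ± 1.73, limma, adjusted p = 0.314). In the large efferent neuron 3 reads would have been worth 12.1 TPM of VLPep3 and 12.2 TPM of GNRH, under their levels in vertical lobe tissue. Sp38 was at 717 TPM in the large efferent neuron from 457 reads, at 9.38 TPM in the medulla neuron from 1 read and at 0 in the other 3, against 1130, 795, 3112, 0 and 175 TPM in the stellate ganglion, vertical lobe 1 and 2, superior frontal lobe and brachial ganglion (adjusted p = 0.124, limma).

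Among neurons, Betsin was above 0 in the stellate neuron alone, and Sp12 was at 0 in the amacrine neuron alone. Betsin was at 623 TPM in the stellate neuron from 90 reads and at 0 in the other 4, against 401 TPM in the stellate ganglion, 117 and 131 in the vertical lobe, 118 in the brachial ganglion and 2.95 in the superior frontal lobe (-4.44 ± 1.64, limma, adjusted p = 0.120). Sp12 was at 393, 0, 121, 391 and 92.1 TPM in the stellate, amacrine, large efferent, medulla and periphery neurons, against 26.3 TPM in the stellate ganglion, 18.9 and 34.4 in the vertical lobe, 0 in the superior frontal lobe and 30.1 in the brachial ganglion (2.31 ± 1.45, limma, adjusted p = 0.295). The 4 neurons that held Sp12 lay above every tissue and the amacrine neuron at the bottom. Insulin1 was at 0 in all 5 neurons and at 0 to 3.61 TPM in tissues, levels under the worth of 3 reads in any neuron, so a difference was not detectable at this depth. APGW, named as the molluscan peptide APGWamide, was at 0 in neurons and at most 2.49 TPM in tissues. Sp31 was recovered as 1 read in the large efferent neuron and 3 in vertical lobe 2, the smallest whole numbers that fit its values.

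**Figure D5:**
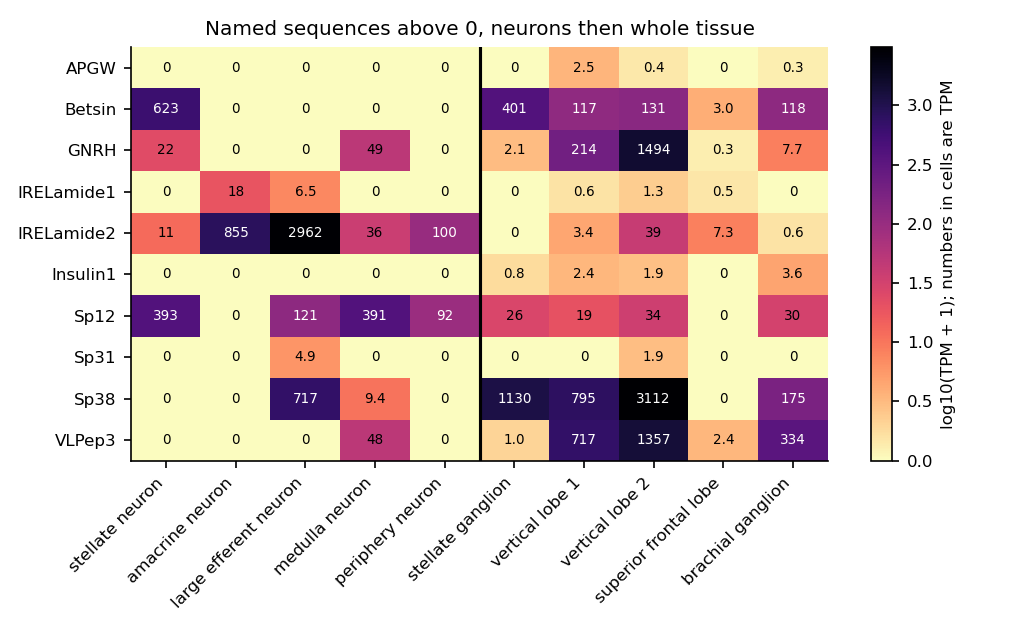
TPM of the 10 named sequences above 0 in any library (numbers in cells; colour is log10(TPM + 1)), with the 5 single neurons in the left columns and the 5 whole tissues in the right columns. IRELamide2 peaks in the large efferent neuron at 2962 TPM, VLPep3 and GNRH peak in vertical lobe 2 at 1357 and 1494 TPM, and Betsin is in the stellate neuron alone among neurons.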

How the data were processed

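RNA-seq of 5 single-neuron and 5 whole-tissue libraries was analysed from the second deposited table, with the plate table used for gene lists. The authors deposited TPM values; per the submitters' processing notes the tools were Trimmomatic 0.32, STAR 2.3, featureCounts and edgeR 3.14.0, with settings and genome build not given in the sources used here. From these, 92 ERCC entries were dropped, each library was rescaled to 1000000, and each gene was represented by its transcript of highest mean over the 10 libraries. Reads were recovered where a transcript's values were whole multiples of a step (tolerance 0.01, met by 26118 of 26374 transcripts, 99.0%). Transcripts above 0 in 1 library alone count among these, at 1 read by construction. Groups follow the labels' source field. limma 3.58.1 (R 4.3.3) tested log2(TPM + 1), which understates changes of low genes, in 1 fit over both groups; library measures had exact permutation tests (scipy 1.17.1). Both the fit and the recovery were tested on simulated data, where the fit called some unchanged genes. Region and organ lists came from plate tissue means (specificity index tau of at least 0.9 and 10 TPM in the top tissue for organs). Named were the 10 called genes without overlap of largest difference in each direction, all named sequences, the top gene of each library, the 3 genes of each neuron furthest above the other neurons, and the 2 highest region-list members of each matching neuron. Members and lists were chosen with earlier results of these data known. P-values measure spread between libraries, which may be technical. Alternatives covered pseudocount, filter, scaling, transcript choice, weights, covariates and each library left out.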

Additional observations from a re-analysis of the deposited data

Results flagged for a closer look

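In 67 groups of 5 libraries checked for a library far from the rest, 14 had one: its gap to the nearest library, divided by the range of the group, passed Dixon's 95% limit. That limit assumes normal values without ties, so a ratio of 1 with the other 4 libraries at 0 was fixed in advance. Some of the genes were also chosen from these data, so no chance rate can be set beside the count. The ratio was 0.768 for the large efferent neuron in LOC106874022, 0.758 for the amacrine neuron in Sp12, and 1 for the stellate neuron in Betsin, the large efferent neuron in Sp31 and the medulla neuron in VLPep3, where the other 4 neurons were at 0. Among tissues it was 1.00 for the spike-in share of vertical lobe 2, 0.838 for the superior frontal lobe in Sp12, 0.736 for the superior frontal lobe in Betsin and 0.721 for vertical lobe 1 in APGW. It was 1 for the brachial ganglion in LOC106877591, the stellate ganglion in LOC106883466 and LOC106874095, and vertical lobe 2 in LOC106874022 and Sp31, where the other 4 tissues were at 0.

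The neurons of 2 regions differed from their tissue in opposite directions for Betsin and GNRH, and neither difference was tested. Betsin was below tissue in the vertical lobe and above it in the stellate neuron, and the vertical lobe difference minus the stellate one was -7.60 on the log2 scale. For GNRH it was -12.1, from 2 reads in the stellate neuron.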

How the results depend on the processing

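Depth limits the neurons: a gene at 0 in the periphery neuron can stand well above 10 TPM. The main counts were 285 genes higher and 265 lower. They were 879 and 1288 with quantile scaling, 1413 and 1034 with normal scores of ranks, 56 and 56 with array weights, 451 and 1185 without both optic lobe neurons and 3993 and 901 with voom on recovered reads, both of the last chosen after seeing the data. Without a trend 430 were higher, and with median ratio scaling 1092 were lower. Both counts were 0 with the label code, with region as a block and in the vertical lobe alone. Leaving out 1 library gave 17 to 1096 higher and 9 to 449 lower. Genes without overlap below the tissues numbered 1288 with median ratio scaling and 2186 without both optic lobe neurons (1719 by rank), and over left-out libraries 630 to 1396 above and 580 to 1024 below (by rank 1644 to 2080 and 1164 to 1608). The difference in genes at 1 TPM was -3334 for genes above 0 and -1999.6 without both optic lobe neurons, and -715 to 1049 over left-out libraries; at 10 TPM it was -229 without both optic lobe neurons and 979 to 2821, at 100 TPM 230 to 512. The share of the top gene moved between -5.16 and 0.0626 points, of the top 10 between -10.4 and -1.95, of the top 100 between -13.9 and -5.33 and of spike-ins between -0.654 and 0.549. Genes at 0 in 1 library alone differed by 602 to 901 and, without both optic lobe neurons, 1177; the within-group correlation by -0.547 to -0.474 and -0.442. With 10 TPM as detected in place of 1 TPM, the list differences changed sign, to 0.529 points against -14.1 (neural), 16.5 against -4.22 (non-neural) and 12.2 against -21.7 (vertical lobe region). Insulin1 turned to 1.22 with voom, Sp12 to -1.26 in the vertical lobe alone, and Sp31 to -0.0201 with median ratio scaling and -1.04 with the label code. The cause of these moves was not tested. No paired analysis was possible because the replicate numbers of the second table only name samples; matching by region is the block given above.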
